A study of Mus musculus with 12 samples.

Results

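The mitochondrial respiratory chain passes electrons from NADH and succinate to oxygen through 4 membrane complexes, I to IV, and complex V, the ATP synthase, uses the proton gradient they build. Complex II is also an enzyme of the citric acid cycle, and cytochrome c carries electrons from complex III to complex IV. Most subunits are encoded in the nucleus, and a small core of complexes I, III, IV and V is encoded in mitochondrial DNA. In macrophages the balance between glycolysis and respiration is known to change with the state of activation, and succinate oxidation at complex II has been tied to inflammatory signalling.

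The genes described here were all those on the array whose name marked them as a subunit of complexes I to V or as cytochrome c. There were 87 such names among 27317 named genes. Of these, 84 were subunits: 35 of complex I, 4 of complex II, 9 of complex III, 20 of complex IV, 15 of complex V and cytochrome c (Cycs). The 3 others were a pseudogene (Atp5c1-ps) and Atp5s and Atp5sl, now named Dmac2l and Dmac2, which are not subunits of the synthase. Ndufa4 and its paralog Ndufa4l2 carry the name of complex I but were counted with complex IV, where the Ndufa4 protein is now placed. A total of 82 subunits were tested, and Cox7b2 and Cox8c, which were not well above background on any array, were not.

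Macrophages had been sorted from normal pancreas and from pancreatic ductal adenocarcinoma, and RNA of each sort was read on 12 one-color Agilent mouse arrays, 6 for each tissue. The labels describe female C57/B6 mice of 4 to 5 months and give the genotype as not provided. The series names wild-type, KPC and FLT3-CRE/LSL-YFP mice as sources, and the protocol text speaks of animals implanted with tumors, but the labels do not tie a sample to any of these. KPC mice are a genetic model that develops pancreatic tumors, and the FLT3-CRE/LSL-YFP reporter marks cells that descend from blood stem cells. In each group 2 arrays carried the same sample name (normal replicates 2 and 3, tumor replicates 4 and 6), and they were averaged, which left 5 samples a group. The labels do not say that the samples came from separate animals, so p-values measure only the spread between these samples.

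A level is given below as the log2 processed signal of a gene's brightest probe relative to the 75th percentile of its array, and a difference as the tumor mean minus the normal mean of such levels. Levels of different genes are not compared, since probes differ in response. The macrophage markers fixed for the check, among them Emr1, Csf1r, Cd68, Mertk and C1qa, were all tested, and 0 of 13 passed an adjusted p of 0.05 (limma), with 1, Emr1, below an unadjusted p of 0.05 at -0.80. Over 8 lists of markers of lymphoid, epithelial, fibroblast, endothelial, erythroid, muscle and fat cells, 0 of 35 tested genes were called. Only 5 of the 35 were above 0, and 3 were lower at an unadjusted p of 0.05. Of all genes tested, 0.335% were called higher and 0.518% lower, 49.7% were above 0, and 6.25% were lower at an unadjusted p of 0.05. Normal replicates 2 and 3 were the dimmest arrays, with 39.3% and 39.6% of probes well above background. The 10 other arrays had 48.9% to 58.8%, and normal replicate 6 was the brightest, at 58.8%. Markers of pancreatic acinar cells were lower in tumor samples: 19 of 20 passed the test, among them Ctrl at -6.36, and their summed share of the signal was 0.517% to 3.53% in normal samples and 0.0101% to 0.187% in tumor samples. In bulk RNA of sorted cells, fewer cells of a type and less RNA per cell cannot be told apart.

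Most nuclear-encoded subunits were slightly higher in tumor macrophages, but none of them by enough to pass the test alone. The difference was above 0 for 73 of 82 subunits, or 89.0%, with a median of 0.22, while 49.7% of all 16395 genes tested were above 0 and their median was -0.003. No subunit was called higher at an adjusted p of 0.05 (limma, Benjamini-Hochberg over all genes), against 0.335% of all genes, and 1 was called lower, against 0.518% of all genes. At an unadjusted p of 0.05, 7 subunits were higher and 1 lower, against 6.69% and 6.25% of all genes. The groups did not overlap, with all tumor samples higher, for 3 subunits (Sdha, Cox5a and Ndufa10), against 1.77% of all genes, and with all tumor samples lower for 1 (Ndufa4l2), against 1.67%. The differences were small: 70 of 82, or 85.4%, lay within 0.5 of 0, against 64.4% of all genes, and the median standard error of the subunits was 0.22, as large as their median difference. Among the 60 subunits in the brightest 4099 genes tested, 54 were above 0 with a median of 0.23, while 49.1% of those 4099 genes were.

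**Figure D1:**
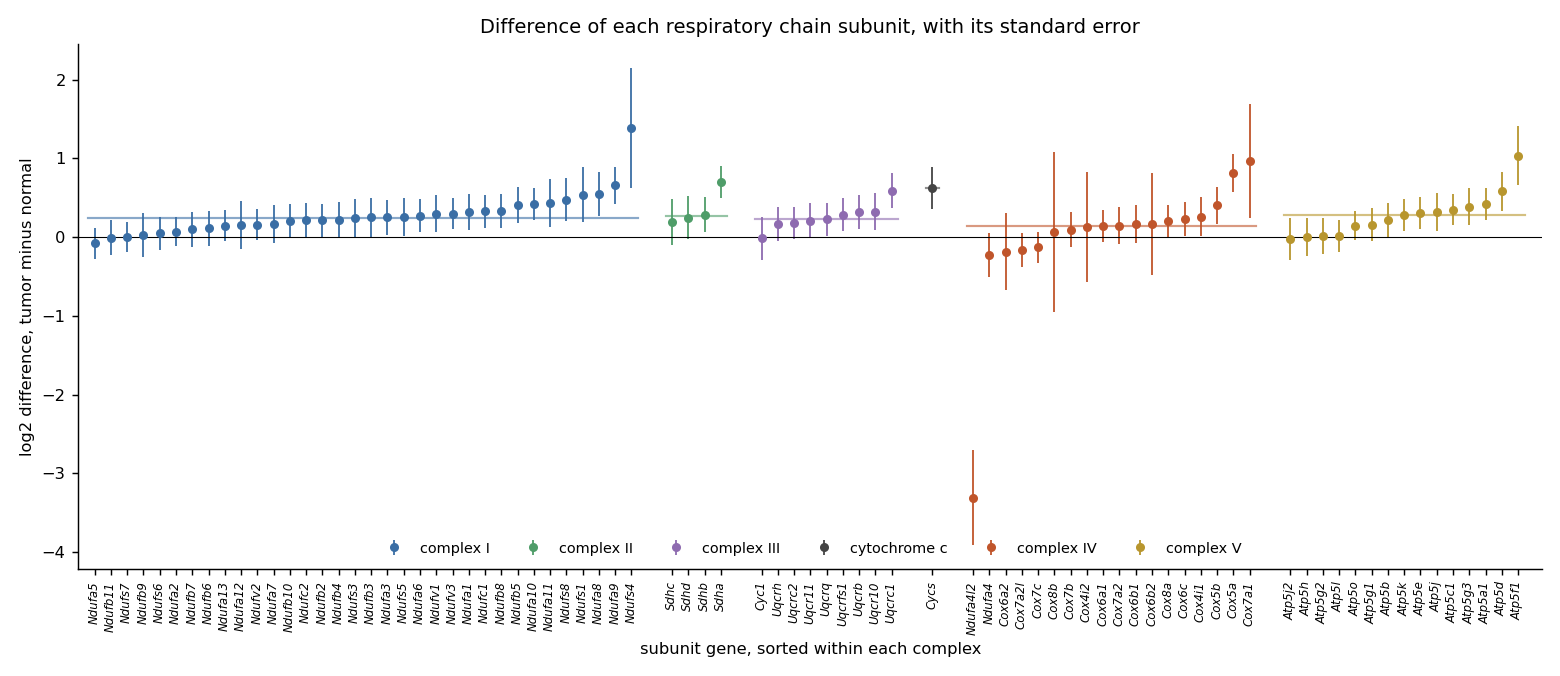
Log2 difference (tumor minus normal) of the tested subunits, sorted within its complex, with its standard error as a vertical line and the median of the complex as a horizontal line; 1 subunit of complex I is not drawn. Most points sit between 0 and 0.5, and Ndufa4l2 stands apart at -3.31.

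The mean level of the subunits varied between the samples of a group, and how far single subunits moved together was not tested. For the 75 subunits well above background on all 12 arrays, the mean level, each gene taken relative to its own mean, was 0.03, -0.02, -0.06, -0.18 and -0.36 in normal replicates 1, 2 with 3, 4, 5 and 6. It was 0.31, 0.22, 0.13, -0.22 and 0.14 in tumor replicates 1, 2, 3, 4 with 6, and 5. So 4 of 5 tumor samples lay above the highest normal sample, and the fifth, replicates 4 and 6, lay among the lowest. The means differed by 0.23, with a pooled SD of 0.18. On the 3 slides taken alone the median difference of the subunits was 0.27, 0.05 and 0.21, and the number above 0 was 66, 48 and 69. The first slide held replicates 1 and 2 of both groups, the second replicates 3 and 4, and the third replicates 5 and 6. With so few arrays, a slide alone has little power to call a gene. The shared sample names cross slides, so the slides are not independent. The arrays of the low tumor sample, replicates 4 and 6, were on the second and the third slide. Of 9 neutrophil markers tested, 7 were above 0 and 1, Retnlg at 4.34, was called higher, against 0.335% of all genes. The mean level of the neutrophil markers was also above the highest normal sample in 4 of 5 tumor samples. However, tumor replicate 5, at 0.14 for subunits, had the lowest tumor level of these markers (-0.66). Their summed share of the signal was 0.000546% to 0.00173% in normal and 0.00111% to 0.0113% in tumor samples. S100a8, which was not called, stood clear of background on 0 normal and 5 tumor arrays. Its difference was 2.67, and 0.84 with normexp background correction. The part of acinar, neutrophil or other admixed RNA in the subunits' levels was not tested.

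**Figure D2:**
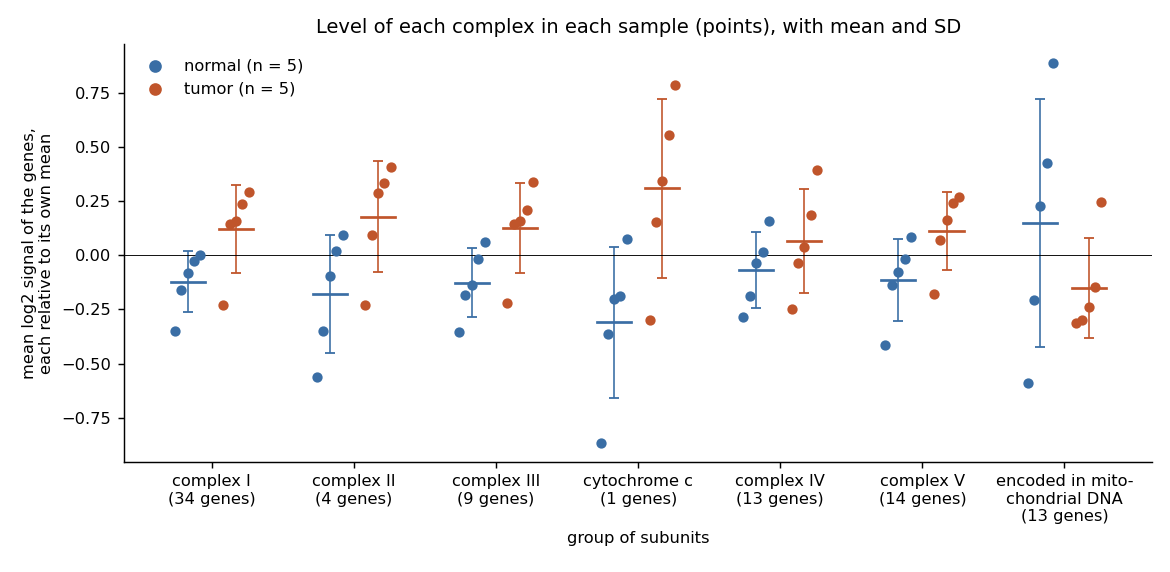
Level of each complex in each sample: the mean log2 signal of its genes that were well above background on all 12 arrays, each gene relative to its own mean over the 10 samples. Points are samples, horizontal bars are means and vertical bars are SD (n = 5 per group). In each nuclear-encoded group 2 to 4 tumor points lie above every normal point and 1 tumor point lies low, while the 13 subunits encoded in mitochondrial DNA lie lower on average in tumor.

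Complex I takes electrons from NADH. Of its 35 subunits, 33 were above 0, with a median difference of 0.24, and all 7 nuclear-encoded core subunits, such as Ndufs1 and Ndufv1, were at or above 0. The core median was 0.24, from 0.0002 for Ndufs7 to 0.54 for Ndufs1. Ndufa9, an accessory subunit near the ubiquinone site, had levels of 2.40, 2.30, 2.11, 2.43 and 1.73 in normal replicates 1, 2 with 3, 4, 5 and 6, and of 2.89, 3.01, 2.91, 2.30 and 3.15 in tumor replicates 1, 2, 3, 4 with 6, and 5. The tumor sample of replicates 4 and 6 fell inside the normal range and the 4 others lay above it. Its difference was 0.66 ± 0.24 (SE), with an adjusted p of 0.273 (limma).

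Ndufa10, an accessory subunit of the membrane arm, spanned 1.58 to 1.92 (median 1.88) in normal and 1.95 to 2.53 (median 2.11) in tumor samples. Its groups were separated by a narrow gap, and the difference of 0.42 ± 0.20 (SE) had an adjusted p of 0.424. Ndufa8, another accessory subunit, differed by 0.55 ± 0.28 (SE), with overlapping groups. Ndufs4, an accessory subunit needed for a stable NADH-oxidizing module, had the largest positive difference of the chain, 1.39 ± 0.76 (SE). That value rested on the dim normal sample of replicates 2 and 3, which lay at -4.11 while the other normal samples ran from -0.46 to 0.80 and the tumor samples from 0.28 to 0.95. Without that sample the difference was 0.55. Ndufa5 had the lowest difference of complex I, -0.08 ± 0.20 (SE), and a second, dimmer probe of the gene gave 0.18.

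Complex II, succinate dehydrogenase, has 4 subunits, all nuclear-encoded, and all 4 were above 0 with a median of 0.27. Sdha, the flavoprotein that oxidizes succinate, had levels of -1.09, -0.81, -0.67, -0.78 and -1.20 in normal replicates 1, 2 with 3, 4, 5 and 6. It had levels of -0.17, -0.05, -0.04, -0.52 and -0.28 in tumor replicates 1, 2, 3, 4 with 6, and 5. Every tumor sample thus lay above every normal sample. The difference was 0.70 ± 0.20 (SE), a 1.62-fold ratio, and it had the smallest p of the subunits with a positive difference, at an adjusted p of 0.171 (limma), which did not pass. With normexp background correction it was 0.32. Its 60-base probe lies at chr13:74460310-74460369 in mm9, the build of the array files.

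The 3 other subunits of complex II had overlapping groups. Sdhb, which holds the iron-sulfur centres, differed by 0.29 ± 0.22 (SE), with the tumor sample of replicates 4 and 6 at 3.16 and the 4 others from 3.67 to 3.86. The membrane anchors Sdhc and Sdhd, which bind ubiquinone, differed by 0.20 ± 0.29 and 0.25 ± 0.27 (SE).

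Complex III passes electrons from ubiquinol to cytochrome c, and 8 of its 9 nuclear-encoded subunits were above 0, with a median of 0.22, which was 0.13 without normal replicate 6. Uqcrc1, a core protein of the matrix side, was at 3.24, 2.95, 2.29, 2.64 and 2.85 in normal replicates 1, 2 with 3, 4, 5 and 6, and at 3.64, 3.24, 3.41, 3.33 and 3.30 in tumor replicates 1, 2, 3, 4 with 6, and 5. Only normal replicate 1 reached the tumor range, and the difference of 0.59 ± 0.22 (SE) had an adjusted p of 0.306 (limma). The other members with small p-values differed by less: 0.32 for Uqcr10, 0.32 for Uqcrb, the ubiquinone-binding protein, and 0.28 for Uqcrfs1, the Rieske iron-sulfur protein. Cyc1, the cytochrome c1 heme protein, was the only member of the complex not above 0, at -0.02 ± 0.28 (SE).

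Cytochrome c itself, Cycs, the mobile carrier that also triggers apoptosis when released, was at 2.31, 1.88, 2.05, 1.37 and 2.04 in normal replicates 1, 2 with 3, 4, 5 and 6. It was at 2.58, 2.40, 2.80, 1.94 and 3.03 in tumor replicates 1, 2, 3, 4 with 6, and 5. The tumor sample of replicates 4 and 6 lay within the normal range. The difference was 0.62 ± 0.27 (SE), with an adjusted p of 0.359 (limma), and a second, dimmer probe of the gene gave -0.16. With the mean of the probes it was -0.04.

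Complex IV, cytochrome c oxidase, was the least uniform. Of its 18 tested genes, 13 were above 0, with a median of 0.14, which was 0.09 without tumor replicate 2 and 0.22 without tumor replicates 4 and 6. Of the 12 forms that most tissues use, 9 were above 0 with a median of 0.15. Cox5a, a nuclear-encoded subunit of the matrix side, was at 2.55, 2.05, 2.44, 2.36 and 2.39 in normal replicates 1, 2 with 3, 4, 5 and 6. It was at 3.13, 2.87, 3.40, 2.70 and 3.76 in tumor replicates 1, 2, 3, 4 with 6, and 5. All tumor samples lay above all normal samples. The difference was 0.81 ± 0.24 (SE), a 1.76-fold ratio, with an adjusted p of 0.187 (limma). Its probe spans chr9:57379593-57380141 in mm9, longer than the probe itself and so across a gap. Cox5b, a zinc-binding subunit, differed by 0.40 ± 0.23 (SE), and Cox4i1, the common form of the largest nuclear-encoded subunit, by 0.26 ± 0.24 (SE).

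No isoform of complex IV other than Ndufa4l2, described next, passed the test. The liver-type and common forms Cox6a1, Cox6b1, Cox7a2 and Cox8a differed by 0.14, 0.16, 0.14 and 0.20, each with a standard error of 0.20 to 0.24. The heart and muscle form Cox6a2 differed by -0.19 ± 0.49 (SE), and Cox8b by 0.06 ± 1.02. The lung form Cox4i2 differed by 0.13 ± 0.70, and the testis form Cox6b2 by 0.16 ± 0.64. Cox7a1, the muscle form, had 0.96 ± 0.72 (SE), which again rested on the dim normal sample at -3.38, and it was 0.17 without it. For Cox6b2 the same sample lay at -2.54, and without it the difference was -0.47. Cox7a2l, which helps join complexes III and IV into supercomplexes, differed by -0.16 ± 0.22 on its brightest probe, and by 1.18 and -0.22 on 2 dimmer ones. The 3 c-ring genes of complex V, Atp5g1, Atp5g2 and Atp5g3, which encode the same mature protein, differed by 0.16, 0.01 and 0.38.

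Ndufa4l2 was the single subunit gene whose change passed the test, and it fell. Ndufa4l2 is a paralog of Ndufa4 that hypoxia is known to induce and that has been reported to restrain oxygen use. Its level was -1.28, -0.87, -1.20, -1.05 and -3.53 in normal replicates 1, 2 with 3, 4, 5 and 6. It was -5.85, -5.50, -5.53, -3.78 and -3.80 in tumor replicates 1, 2, 3, 4 with 6, and 5. All tumor samples lay below all normal samples, but normal replicate 6 lay only just above the highest tumor sample. The difference was -3.31 ± 0.60 (SE), a 9.91-fold ratio of normal over tumor, with an adjusted p of 0.0328 (limma). The probe, at chr10:126954149-126954208 in mm9, stood clear of background on all 6 normal arrays but on 1 of the 6 tumor arrays. With each array's signal raised to at least the lowest signal well above background, the ratio was 3.90-fold. With normexp background correction the difference was -1.22 at an adjusted p of 0.0863 (limma). On the 3 slides alone it was -4.63, -3.82 and -1.28. On any slide alone 0 genes were called, but the few arrays of a slide leave little power.

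The call on Ndufa4l2 was lost when any 1 of 7 samples was left out: normal replicate 1, normal replicates 2 and 3, normal replicates 4 or 5, or tumor replicates 1, 2 or 3. The adjusted p was then 0.0697 to 0.102 and the difference -3.23 to -3.07. Without normal replicate 6 the difference was -3.79 and the adjusted p 0.00509 (limma). Ndufa4 itself, the common subunit, was at 2.22, 1.90, 1.91, 2.18 and 1.73 in normal replicates 1, 2 with 3, 4, 5 and 6, and at 2.08, 1.70, 2.50, 1.105 and 1.41 in tumor replicates 1, 2, 3, 4 with 6, and 5. Its groups overlapped, and the difference was -0.23 ± 0.28 (SE).

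Among normal samples, those with more acinar signal also had more Ndufa4l2. The mean level of the 20 acinar markers, each relative to its own mean, was 3.12, 4.87, 3.66, 4.00 and 0.83 in normal replicates 1, 2 with 3, 4, 5 and 6. It was -5.31, -4.96, -3.40, -1.999 and -0.82 in tumor replicates 1, 2, 3, 4 with 6, and 5. The 5 normal samples had the same order in both measures, and normal replicate 6 was the lowest in both. The tumor samples are not ordered here, since the Ndufa4l2 probe was above background on 1 tumor array alone. Islet markers were lower in tumor too, with 5 of 5 tested below 0 (Ins2 at -3.12) and 0 called. At an unadjusted p of 0.05 (limma) 4 were lower, against 6.25% of all genes. Without overlap of the groups 4 were lower, against 1.67% of all genes. Their summed share of the signal was 0.0113% to 0.254% in normal and 0.00433% to 0.00728% in tumor samples. The mean level of the islet markers was 1.55, 3.83, -0.30, 0.50 and 0.05 in normal replicates 1, 2 with 3, 4, 5 and 6. That is not the Ndufa4l2 order, and replicate 4, not 6, was the lowest. Of 7 tested markers of pericytes and smooth muscle, a list chosen after these values were seen, 6 were below 0, with a median of -0.79, and their shares overlapped (0.105% to 0.173% in normal, 0.110% to 0.158% in tumor). The mean level of these markers was 0.17, 2.01, -0.44, 0.997 and -1.18 in normal replicates 1, 2 with 3, 4, 5 and 6. Normal samples had the Ndufa4l2 order there too, except that replicates 1 and 4 changed places. The subunits encoded in mitochondrial DNA, given below, had the same order as these markers. All levels of an array are relative to its 75th percentile. That was lowest for normal replicates 2 and 3 (398 and 430) and highest for normal replicate 6 (1547), and its part in these orders was not tested. The part of RNA from acinar, islet, pericyte or smooth muscle cells in the Ndufa4l2 difference was not tested.

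**Figure D3:**
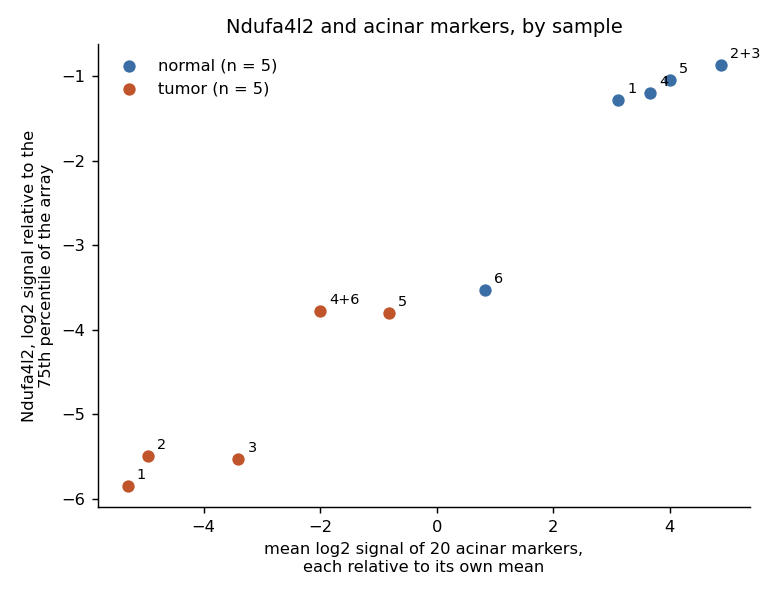
Level of Ndufa4l2 against the mean level of 20 acinar markers in each sample, both on a log2 scale, with the replicate numbers beside the points. Samples of normal pancreas with the highest acinar signal have the highest Ndufa4l2, and normal replicate 6, at 0.83 and -3.53, lies apart from the 4 other normal samples. Tumor values of Ndufa4l2 are mostly at background level, so their order is not read.

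**Figure D4:**
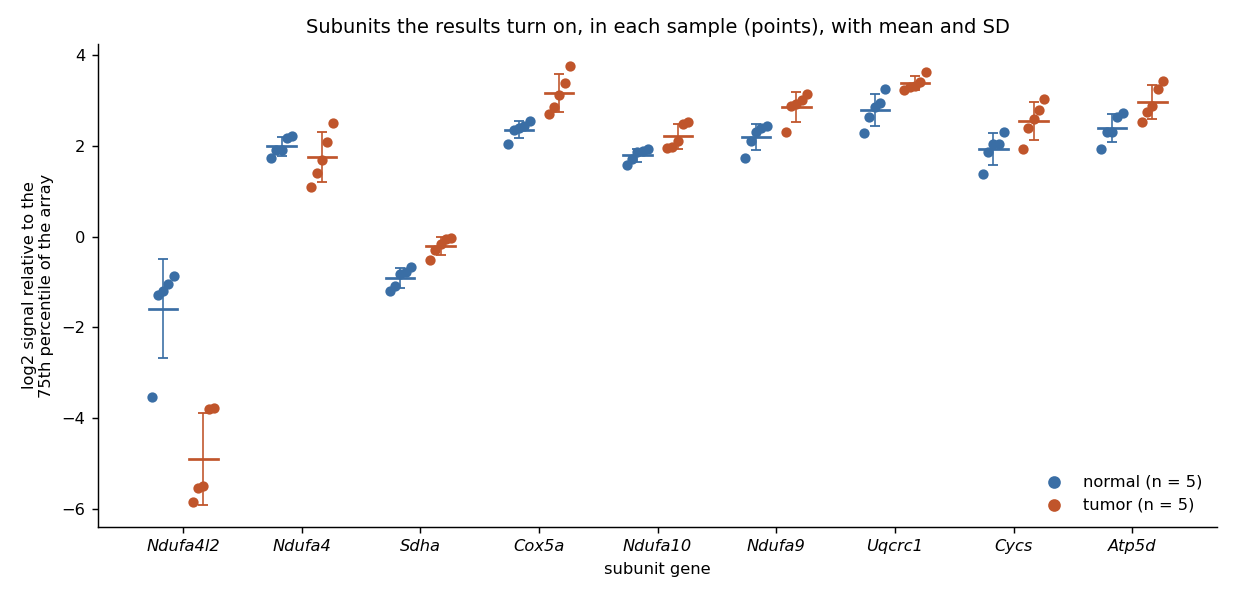
Levels of 9 subunits in each sample (points), with the mean and SD of each group (n = 5). The groups are separated for Ndufa4l2, Sdha, Cox5a and Ndufa10 and overlap for the 5 others.

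Complex V makes ATP, and 14 of its 15 subunits were above 0 with a median of 0.28. Atp5d, the delta subunit of the rotating stalk, was at 2.72, 2.64, 2.32, 1.94 and 2.32 in normal replicates 1, 2 with 3, 4, 5 and 6, and at 3.26, 3.44, 2.88, 2.53 and 2.74 in tumor replicates 1, 2, 3, 4 with 6, and 5. The groups overlapped, and the difference of 0.58 ± 0.25 (SE) had an adjusted p of 0.357 (limma). Atp5a1 and Atp5c1, the alpha and gamma subunits of the F1 head, differed by 0.42 ± 0.20 and 0.35 ± 0.20 (SE). Atp5b, the catalytic beta subunit, differed by 0.22 ± 0.22.

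Atp5f1, now named Atp5pb, the b subunit of the stalk that holds the head still, had the largest positive difference of complex V, 1.04 ± 0.38 (SE), with an adjusted p of 0.288. The dim normal sample of replicates 2 and 3 lay at -2.62, against -1.005 to -0.59 in the other normal samples and -0.62 to 0.23 in tumor samples, and without it the difference was 0.67. Atp5j2 was the only member not above 0, at -0.02 ± 0.27 (SE), and a second, slightly dimmer probe of the gene gave 0.28.

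A second look at the same genes came from other probes. Of 28 subunits with several probes past the filter, 39 further probes could be compared, and 33 of them had the sign of the brightest one. The median gap was 0.13, and 4 probes, of Cox7a2l, Cycs, Ndufb6 and Ndufa3, lay over 0.5 away. Sdha, Cox5a and Ndufa4l2 each had 1 probe. Many subunit genes have processed pseudogenes of nearly the same sequence, which a probe may also bind, and this was not tested.

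The 13 subunits encoded in mitochondrial DNA did not share the direction of the nuclear ones. None of the 13 was above 0, with a median of -0.30 and an adjusted p of at least 0.539 (limma), and 0 passed an unadjusted p of 0.05. The probe for ND3 lies on chromosome 1 in the array files, not in mitochondrial DNA. Their mean level was 0.23, 0.89, -0.21, 0.43 and -0.59 in normal replicates 1, 2 with 3, 4, 5 and 6, and -0.14, 0.25, -0.31, -0.30 and -0.24 in tumor replicates 1, 2, 3, 4 with 6, and 5. The normal samples thus spread on both sides of the tumor samples, and normal replicates 2 and 3, the dimmest arrays, were the highest. Without that sample the median was -0.10. The nuclear minus mitochondrial level was higher by 0.53 in tumor, with a pooled SD of 0.38, and the groups overlapped.

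Regulators and partners of the chain were read from lists chosen for it, and no gene of the 7 lists was called by limma, while 10 were higher and 1 was lower at an unadjusted p of 0.05 among 110 tested, against the 6.69% and 6.25% of all genes given above. Genes that drive mitochondrial biogenesis were split, with 5 of 10 tested above 0 and a median of 0.02. Ppargc1b, a coactivator of respiratory genes, lay between -5.18 and -2.61 in normal samples and between -2.55 and -0.997 in tumor samples. Its groups were separated by a narrow gap, and its probe stood clear of background on 3 of the 6 normal arrays. The difference was 1.84 ± 0.52 (SE), with an adjusted p of 0.163 (limma). It was 0.46 with normexp background correction, and 2.05 with an adjusted p of 0.0339 (limma) when the 12 arrays were taken as separate samples. That fit counts arrays of 1 sample name as independent, which tends to make p-values too small. Esrra, the nuclear receptor that works with Ppargc1b, differed by 0.86 ± 0.28 (SE) with an adjusted p of 0.222 and overlapping groups. Nrf1 and Gabpb1, factors that bind many respiratory promoters, differed by -0.11 ± 0.26 and -0.24 ± 0.25, and Ppargc1a, whose probe stood clear of background on 1 array of each group, was not tested.

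Nuclear respiratory factor 1 and the ETS factor GABP are known to bind the promoters of many respiratory genes, so the 250 bases before the start of each gene were searched for a core of each motif on both strands. RefSeq start sites on GRCm38.p6 gave such a window for 68 of 84 subunits. The core GCATGCGC of nuclear respiratory factor 1 was found for 9 of them, or 13.2%, and for 2.56% of all 27025 genes of the table. The ETS core CTTCCGG was found for 12 subunits, or 17.6%, and for 7.83% of all genes. All genes of the table were counted, not matched to the subunits in base content or expression. All 9 subunits with the first core and all 12 with the second had a positive difference, with medians of 0.28 and 0.17, and so did 52 of 58 and 49 of 55 tested subunits without them, with medians of 0.22 and 0.26. The last 100 bases before the start are shown, on the gene's strand, for 4 subunits with the first core (Cycs at chr6:50566570-50566669, Ndufa8 at chr2:36049339-36049438, Sdhb at chr4:140961171-140961270 and Atp5k at chr5:108434400-108434499). They are also shown for Cox6a1, with the ETS core, at chr5:115348959-115349058. Cox6a1 holds the first core too, 160 bases before its start and so outside the bases shown. The separated subunits Sdha, at chr13:74350241-74350340, and Cox5a, at chr9:57521132-57521231, hold neither exact core and are shown as well. Only the exact letters of each core were searched, so other forms of either motif were not counted in any gene. Sdhb and Cox5a lie on the plus strand and the 5 others on the minus strand. Capitals mark the motif cores, which overlap on both strands in Atp5k.
Cycs: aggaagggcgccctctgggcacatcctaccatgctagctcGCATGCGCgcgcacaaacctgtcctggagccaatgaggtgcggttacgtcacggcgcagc
Ndufa8: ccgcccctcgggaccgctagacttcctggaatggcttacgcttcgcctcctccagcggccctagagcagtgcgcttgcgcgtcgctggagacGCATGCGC
Sdhb: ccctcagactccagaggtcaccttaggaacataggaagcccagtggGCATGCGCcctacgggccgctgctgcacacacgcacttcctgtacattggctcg
Atp5k: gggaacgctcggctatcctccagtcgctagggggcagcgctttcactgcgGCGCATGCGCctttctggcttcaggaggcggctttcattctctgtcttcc
Cox6a1: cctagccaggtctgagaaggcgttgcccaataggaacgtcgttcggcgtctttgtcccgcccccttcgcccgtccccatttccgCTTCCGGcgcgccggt
Sdha: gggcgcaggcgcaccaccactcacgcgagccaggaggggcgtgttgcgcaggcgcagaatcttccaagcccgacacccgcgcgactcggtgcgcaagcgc
Cox5a: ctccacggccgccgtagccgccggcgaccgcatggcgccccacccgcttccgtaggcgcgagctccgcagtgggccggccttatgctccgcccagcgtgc

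The citric acid cycle, which feeds the chain, had 9 of 13 tested genes above 0, with a median of 0.30. Ogdh, the E1 part of oxoglutarate dehydrogenase, lay between 1.87 and 2.55 in normal samples and between 2.70 and 3.19 in tumor samples. Its groups did not overlap, and the difference of 0.61 ± 0.21 (SE) had an adjusted p of 0.253 (limma). Dlst, the E2 part of the same enzyme, differed by 0.66 ± 0.25 (SE), and Idh3a, a subunit of isocitrate dehydrogenase that was well above background on 1 normal and 4 tumor arrays, by 1.34 ± 0.45. With normexp background correction Idh3a was at -0.06, and with the mean of all its probes Ogdh was at 0.28. Assembly factors of the complexes had 20 of 35 above 0 with a median of 0.09. Among them Acad9, a complex I assembly factor, differed by -1.49 ± 0.43 (called, at an adjusted p of 0.0355, without tumor replicates 4 and 6), Coa5, a complex IV factor, by 1.01 ± 0.32, and Uqcc2, a complex III factor, by 0.54 ± 0.20 (SE), the last with separated groups.

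Mitochondrial carriers, import proteins and chaperones had 13 of 17 above 0, with a median of 0.21. The import proteins Timm23 and Tomm22 had 0.70 ± 0.22 and 0.81 ± 0.29 (SE), and the outer membrane channel Vdac3 had 0.36 ± 0.24. Ubiquinone synthesis and other electron donors had 10 of 17 above 0, with a median of 0.19. Gpd2, the mitochondrial glycerol phosphate dehydrogenase, was at 0.71 ± 0.44, the electron transfer flavoprotein Etfb at 0.36 ± 0.23 and Coq4 at -0.998 ± 0.63 (SE). Uncoupling and antioxidant genes had 7 of 9 above 0, with a median of 0.08, Prdx5 at 0.43 ± 0.23, Sod2 at 0.35 ± 0.27 and Glrx2 at -0.47 ± 0.30 (SE), or -0.08 with quantile normalization.

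Genes of itaconate, succinate and the hypoxia response had 8 of 9 above 0, with a median of 0.34. Higd1a, a small hypoxia-inducible protein of the inner membrane, differed by 0.71 ± 0.28 (SE) with an adjusted p of 0.314 (limma). Egln3, a hypoxia-inducible oxygen sensor, differed by 1.30 ± 0.63, and Hif1a, well above background on 0 normal and 3 tumor arrays, by 1.09 ± 0.66 (SE), or by 0.12 with normexp background correction. Ndufa4l2, also known as a hypoxia-induced gene, lay on the other side of 0. Irg1, now Acod1, which makes itaconate, an inhibitor of succinate dehydrogenase, differed by 0.33 ± 0.64 (SE), and the succinate receptor Sucnr1 was not well above background on any array.

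**Figure D5:**
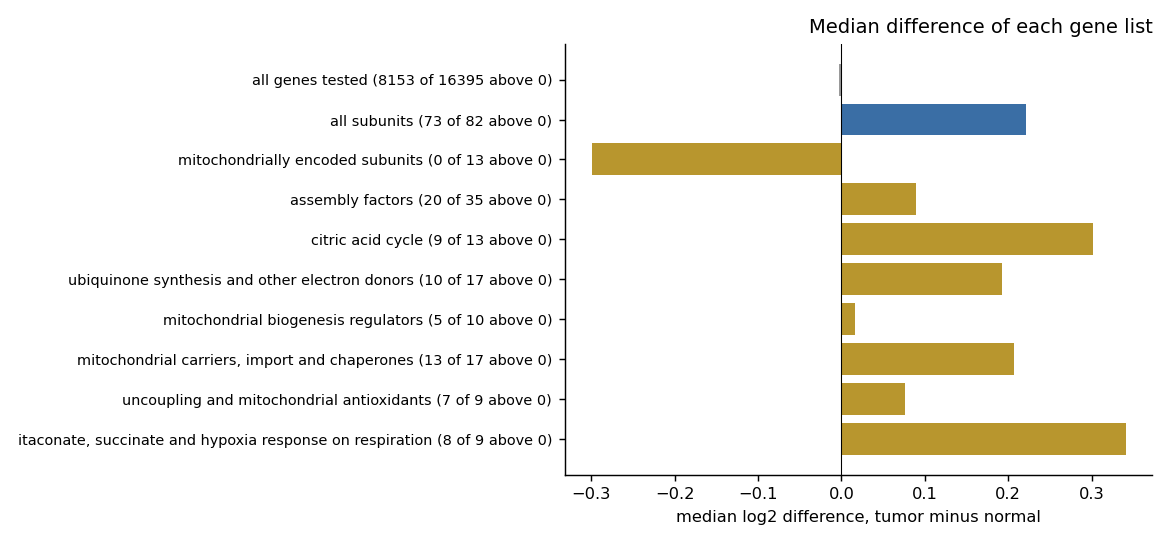
Median log2 difference (tumor minus normal) of the subunits and of each list of partner genes, with the number of tested genes above 0 beside each name. Bars start at 0. The subunits lie at 0.22 and the subunits encoded in mitochondrial DNA at -0.30, while all genes lie near 0.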

How the data were processed

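The scanner files came from Agilent Feature Extraction 11.5.1.1, red channel only, per the file headers and the submitters' processing notes. Per the labels' protocols, cDNA was amplified and labelled chemically with Cy5, so a ratio is one of amplified signal. The authors deposited the intensity of each spot, of which the background-subtracted processed signal was used here, and a table of log2 values, which matched quantile-normalized log2 processed signals of the same arrays (lowest correlation 0.9999) and served as an alternative.

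Spots with outlier flags (0.401%) were left out, spots of a probe were averaged in log2, and each array was scaled by subtracting its 75th percentile (a linear signal of 398 to 1547). Each gene was named by the array files and read by the probe with the highest mean processed signal. A gene was tested (16395 were) if either group had 3 or more arrays on which the software called its probe well above background. Arrays of 1 sample name correlated at 0.993 to 0.995, other pairs of a group at 0.967 or less, and were averaged. The test was limma's moderated one, two-sided (version 3.58.1, R 4.3.3), with Benjamini-Hochberg adjustment over all genes, and 140 genes passed an adjusted p of 0.05. The number of arrays limits the precision. The script was tested on simulated data. Subunits and lists were chosen with earlier results of these data known. Named were called subunits, the 4 smallest p-values in complexes I, III, IV and V, all of complex II, Cyc1 and Cycs, isoform pairs, the extremes of each complex, the 3 smallest p-values of each partner list and the 2 smallest of each cell type list. Other genes named as examples were chosen after their values were seen. Alternatives were another background correction, scaling, filter, probe choice, naming, variance model, slide as a block or alone, and leaving out each sample. The values of 1 subunit of complex I are in the counts and medians but are not reported here by name.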

Additional observations from a re-analysis of the deposited data

Results flagged for a closer look

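Within a group of 5 samples, 1 sample stood apart from the others (Dixon's ratio of gap to range above its critical value) for 7 subunits and 1 complex. These were 8 of 96 groups looked at, and chance flags about 1 in 20. For 4 subunits the lowest normal sample was normal replicates 2 and 3, the dimmest arrays. The ratio was 0.797 for Atp5f1 (-2.62 against -1.005 to -0.59 in the others), 0.882 for Cox6b2 (-2.54 against 0.36 to 0.75), 0.795 for Cox7a1 (-3.38 against 0.09 to 0.99) and 0.744 for Ndufs4 (-4.11 against -0.46 to 0.80). Ndufa4l2 had normal replicate 6 as the lowest, with a ratio of 0.843. The tumor sample of replicates 4 and 6 was the lowest for Sdhb, with a ratio of 0.729, and for the mean level of complex I, with a ratio of 0.713 (-0.23 against 0.15 to 0.29). Uqcrfs1 had normal replicate 5 as the lowest, with a ratio of 0.799 (0.44 against 0.67 to 0.73).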

How the results depend on the processing

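No paired analysis was possible because the replicate numbers were given in order of deposit and pair no samples. All genes called numbered 140, and 218 with normexp background correction, 237 with a trended robust variance and 67 to 199 with a sample left out. There were 461 with 12 separate arrays, where arrays of 1 sample name count as independent. On each slide alone, which held few arrays, 0 were called. Subunits called lower were 1, and 0 with normexp and on each slide alone, and 0 to 1 with a sample left out, while subunits called higher were 0 under all 26 alternatives. Subunits above 0 numbered 48 on the second slide alone, where the medians of complexes I to V were 0.08, 0.03, 0.037, -0.001 and 0.055, and the cause was not tested. In the other alternatives the count was 64 to 75, lowest without normal replicate 6, the array with the most probes well above background. For the 38 tested subunits named by the rule given above, 987 pairs of a subunit and an alternative were compared. Of these pairs, 61 changed sign, 0 gained a call, 11 lost a call and 0 reversed while called. The other tested subunits are not in these counts. Without the filter the median of all genes was -0.26, as dim genes then entered. With quantile normalization the mitochondrially encoded median was -0.13. Dim subunits such as Ndufa4l2 in tumor and Ndufs4, Cox7a1 and Cox8b are limited by their signal over background.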
